A study of Mus musculus with 9 samples.

Results

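Genes of the complement and coagulation cascades were examined in the liver of mice that carried a tumour in another organ. The set held 39 genes, chosen by name with the serpin inhibitors left out, and 36 of them had at least 1 probe set that the array annotation assigns to a single gene. C3, Cfd and Cpb2 had none and are not analysed here. The 36 genes had 48 probe sets, out of 12393 genes and 22690 probe sets on the array, and all 48 passed the filter on low intensity. For each gene the brightest probe set stands for the gene.

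There were 3 groups of 3 livers. T-TSU mice bore a tumour and received TSU68, an oral inhibitor of the VEGF, PDGF and FGF receptor tyrosine kinases, at 400 mg/kg/day by mouth. T-Co mice bore a tumour and received vehicle. NT-Co mice had no tumour and received vehicle. The tumour was TK-4, a human colon cancer, placed in the cecal wall of male BALB/c nu/nu mice, which lack a thymus and so most T cells, at the age of 6 weeks. Dosing began on day 7 and lasted 1 week. Strain, sex and age are not stated separately for the mice without tumour, and no operation on them is described, so tumour and implantation cannot be told apart. The labels number the livers without tying each to its own mouse, so the spread behind every p-value may be partly technical.

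Clotting factors are serine proteases and cofactors, most of them made by hepatocytes and secreted as inactive precursors, which activate each other in sequence until thrombin cuts fibrinogen into fibrin. Plasmin, made from plasminogen, dissolves the fibrin. Complement works in a similar chain: recognition proteins of the classical and lectin pathways, or the alternative pathway, lead to cleavage of C3 and C5, and C5b to C9 then assemble into a pore in the target membrane. The liver is the main source of most of these plasma proteins, and fibrinogen, C3 and factor B are known to be raised in the acute phase response to inflammation.

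The genes called were Plg and C6. The 3 fibrinogen chains, none of which passed in any comparison, are described with them because their genes lie side by side with no other protein-coding gene between them. Promoter windows of the fibrinogen chains and C6, 250 bases before to 50 after the annotated start, are shown 5′ to 3′ from RefSeq (GRCm38.p6), to set 3 neighbouring genes beside 1 that differed in the opposite direction. The windows are chr3:83025903-83026202 on the plus strand for Fga, chr3:83049814-83050113 on the minus strand for Fgb, chr3:83007474-83007773 on the plus strand for Fgg and chr15:4726960-4727259 on the plus strand for C6. Capitals mark matches, on either strand, to 4 short motifs of factors that are known to act on liver genes: the STAT site TTCNNNGAA, the type II interleukin-6 response element CTGGGAA, the C/EBP site TTGCNNAA and the HNF1 half-site GTTAAT.
Fga: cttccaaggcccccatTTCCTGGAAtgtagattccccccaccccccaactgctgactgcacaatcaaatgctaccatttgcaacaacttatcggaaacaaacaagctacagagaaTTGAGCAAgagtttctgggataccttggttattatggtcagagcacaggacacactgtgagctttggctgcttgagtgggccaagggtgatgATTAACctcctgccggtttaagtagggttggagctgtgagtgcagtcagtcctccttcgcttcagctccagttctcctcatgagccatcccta
Fgb: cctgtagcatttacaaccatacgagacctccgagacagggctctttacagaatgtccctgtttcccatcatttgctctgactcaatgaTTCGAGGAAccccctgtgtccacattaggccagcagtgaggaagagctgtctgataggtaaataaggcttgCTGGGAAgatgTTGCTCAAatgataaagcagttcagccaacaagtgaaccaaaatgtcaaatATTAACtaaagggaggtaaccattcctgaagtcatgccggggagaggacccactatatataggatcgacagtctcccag
Fgg: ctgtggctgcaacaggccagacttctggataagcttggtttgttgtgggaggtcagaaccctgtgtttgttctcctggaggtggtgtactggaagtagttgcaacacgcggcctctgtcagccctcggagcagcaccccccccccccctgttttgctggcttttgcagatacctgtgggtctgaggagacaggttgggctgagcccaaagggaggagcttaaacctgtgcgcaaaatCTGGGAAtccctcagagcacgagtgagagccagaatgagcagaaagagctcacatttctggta
C6: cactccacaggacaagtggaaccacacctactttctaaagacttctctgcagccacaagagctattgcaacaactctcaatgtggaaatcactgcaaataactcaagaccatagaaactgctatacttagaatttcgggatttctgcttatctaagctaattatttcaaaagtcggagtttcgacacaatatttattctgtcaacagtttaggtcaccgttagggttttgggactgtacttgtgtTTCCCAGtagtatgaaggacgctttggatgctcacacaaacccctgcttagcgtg

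The Fga window held a STAT, a C/EBP and an HNF1 match, and the Fgb window held a match to all 4 motifs. The Fgg window held only the type II interleukin-6 element, 13 to 7 bases before the start, and so did the C6 window, where it spans the start. Of the members, 29 had a window in the table, and the first listed for each was used. The shares of all windows count every listed window. The STAT motif was in 27.6% of these windows against 8.3% of all 32851 windows, and the type II element in 27.6% against 11.1%. In F9, Masp2 and Vtn a STAT match and a type II match share bases, so these shares are partly of the same sites. The C/EBP motif was in 31.0% against 10.8%, and the HNF1 half-site in 34.5% against 7.1%. These are descriptions of letters, and a match does not show that a factor binds there.

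The deposited values are linear array intensities, already scaled to a common trimmed mean. Differences are given as log2(intensity + 7.93), tested with limma over all 15838 probe sets in 1 model of the 9 arrays, with p-values adjusted by Benjamini-Hochberg and a threshold of 0.05. A ± after a log2 difference is the SE of that fit, and a ± after an intensity is the SD (n = 3). Median intensities of the arrays lay between 107.9 and 120.1. On the second principal component of the tested probe sets T-Co replicate 13 had a score of 48.7, and the remaining scores ran from -31 to 17.7. All 12 hepatocyte markers passed the intensity filter. Hepatocyte marker intensity summed to 286600 to 309000 in T-TSU, 341400 to 353200 in T-Co and 281500 to 308600 in NT-Co. In bulk tissue, fewer cells of a type and less RNA per cell cannot be told apart. The beta-actin 3' to 5' probe ratio, which rises as transcripts are degraded or incompletely copied, was 2.02 ± 0.20 in T-TSU, 1.98 ± 0.11 in T-Co and 2.72 ± 0.44 in NT-Co. Its part in the results was not tested.

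T-Co livers were set against NT-Co livers to ask what a tumour in the cecum goes with in the liver. Of the 36 genes, only Plg rose and only C6 fell. Over all 9241 genes tested, 3.58% were called higher and 2.79% lower, so 1 call of 36 in each direction is near that background; over all probe sets 6.59% were called. The differences that did not pass ran from -1.48 for the dim F3 to 0.52 for Pros1, with a median of 0.14, where the median of all genes was -0.017. Differences lay above 0 for 24 of the 36 genes and below 0 for 12, against 48.3% and 51.7% of all genes. Without T-Co replicate 13 the median was 0.083, with 21 genes above 0. With no overlap between T-Co and NT-Co arrays, 13 of the 36 genes were higher and 6 lower in T-Co, against 13% and 13.7% of all genes. The share of members was thus well above that of all genes for the higher ones and near it for the lower ones. At an unadjusted p under 0.05 there were 9 higher and 6 lower of the 36, larger shares than the 10.7% and 11.2% of all genes. These shares were not tested.

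Plasminogen (Plg), the precursor of plasmin, had intensities of 33080, 34720 and 33320 in T-Co and 22760, 24320 and 27610 in NT-Co. Every T-Co array lay above every NT-Co array. The rise was 0.44 ± 0.09 on the log2 scale, or 1.36-fold (limma adjusted p = 0.0147). The call was lost without NT-Co replicate 8 (0.0698) or 10 (0.0543), with arrays centred on their median (0.0618), without the intensity filter (0.0719) and without the intensity trend (0.106).

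C6, a component of the membrane pore, had intensities of 1350, 1288 and 1379 in T-Co and 2790, 2792 and 2413 in NT-Co. The T-Co arrays lay close together and all below NT-Co. The fall was -0.99 ± 0.23 on the log2 scale, to 0.505 of the NT-Co level (limma adjusted p = 0.0242). Its size was between -1.06 and -0.95 with any 1 array of the groups left out, but of those 6 fits it passed in 1, the one without T-Co replicate 13. The adjusted p was 0.0887, 0.0698 and 0.0599 without NT-Co replicates 8, 10 and 11, 0.0523 and 0.0591 without T-Co replicates 9 and 10, and 0.0879 without the intensity trend.

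**Figure D1:**
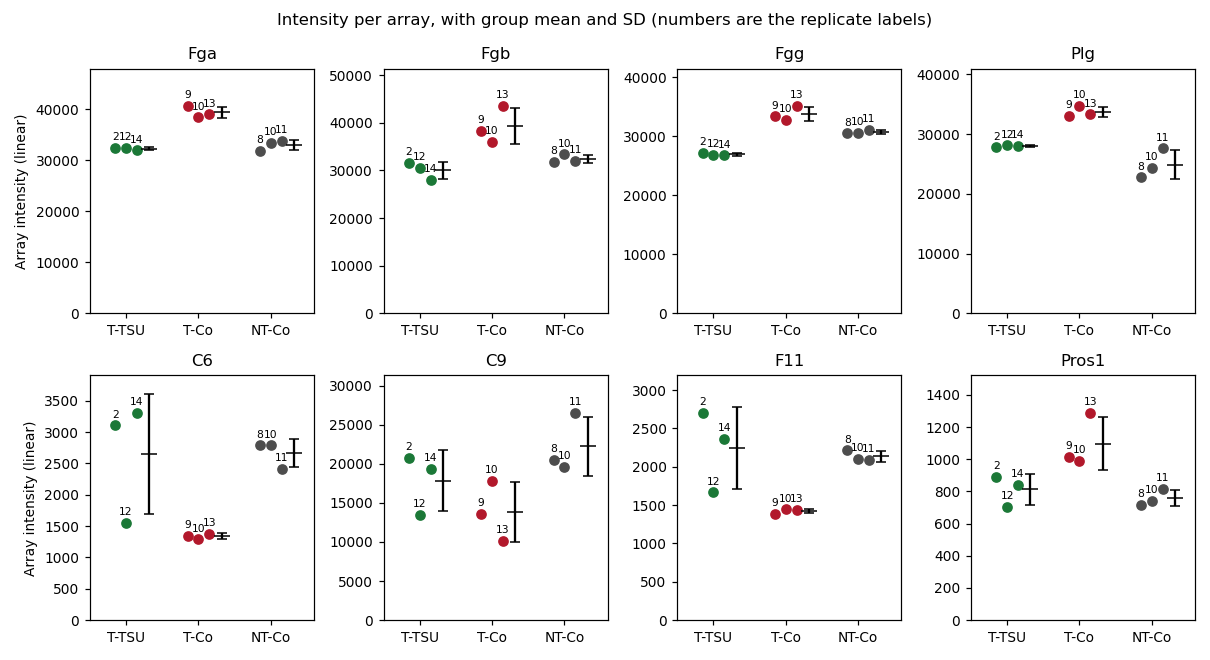
Array intensity (linear axis from 0) of 8 genes in each of the 9 arrays, with the replicate label at each point and the group mean and SD as a bar to its right. The fibrinogen chains and Plg are highest in T-Co, while C6 and F11 are lowest there and T-TSU replicate 12 lies near T-Co for both.

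The 3 fibrinogen genes, which encode the alpha, beta and gamma chains of the clot protein, were higher in every T-Co array than in every NT-Co array, by small amounts that did not pass. Fga had 40610, 38400 and 38990 in T-Co and 31810, 33350 and 33710 in NT-Co, a difference of 0.26 ± 0.08 (limma adjusted p = 0.0781). Fgb had 38380, 36030 and 43570 in T-Co and 31810, 33400 and 32050 in NT-Co, a difference of 0.27 ± 0.10 (0.110). The spread of Fgb in T-Co came with replicate 13, the highest array. Fgg had 33370, 32800 and 35150 in T-Co and 30500, 30570 and 31140 in NT-Co, a difference of 0.14 ± 0.08 (0.358).

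These probe sets are among the brightest on the array, and bright probe sets as a whole were shifted. Among the 107 genes with a mean intensity of 16000 or more, the median difference between T-Co and NT-Co was 0.10 and 69.2% lay above 0. The 11 members in that range had a median of 0.25, and 9 of them lay above 0. After quantile normalization, which gives all arrays the same distribution, the 107 genes had a median of -0.004 and the 11 members 0.12. The differences of Fga, Fgb and Fgg were then 0.12, 0.17 and 0.033, and that of Plg was 0.33 (limma adjusted p = 0.0224). Of the 12 hepatocyte markers, 11 also had a difference above 0, with a median of 0.27, close to that of the fibrinogen chains (0.26), and their summed level did not overlap between T-Co and NT-Co. In this comparison 3.58% of all genes were called higher. By limma 4 of the 12 markers rose: Ahsg by 0.51 ± 0.10, Tat by 0.86 ± 0.20, Cps1 by 0.46 ± 0.09 and Arg1 by 0.48 ± 0.09 (adjusted p = 0.0128, 0.023, 0.00923 and 0.00919). These rises were as large as or larger than the 0.44 of Plg. What the shift of bright probe sets and of hepatocyte markers contributes to the fibrinogen and plasminogen values was not tested.

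**Figure D2:**
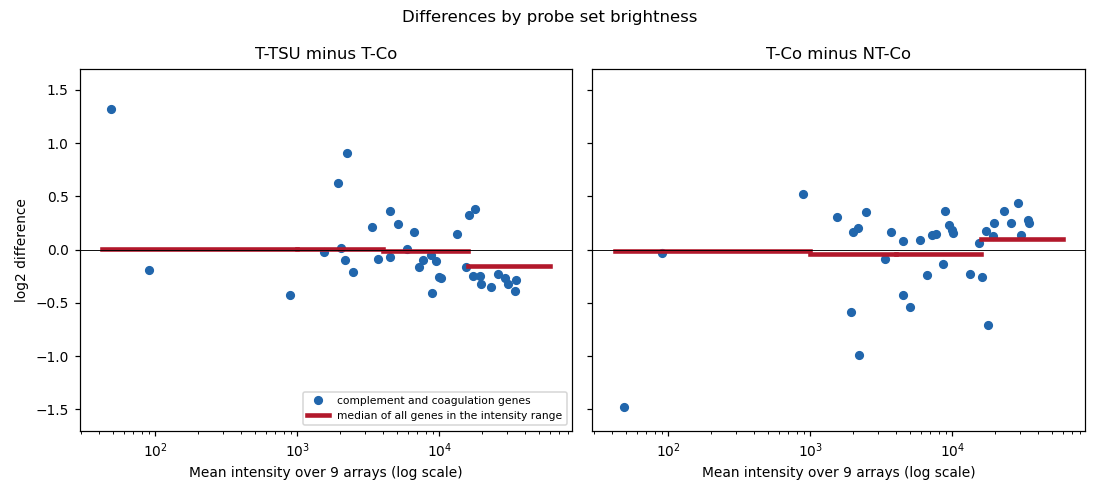
Log2 difference (vertical axis) against mean intensity over 9 arrays (horizontal axis, log scale) for T-TSU minus T-Co and T-Co minus NT-Co. Points are the 36 genes and red lines are medians of all genes tested in 4 intensity ranges; above 16000 the line lies at -0.15 for T-TSU minus T-Co and at 0.10 for T-Co minus NT-Co.

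Among the other clotting factors none was called between T-Co and NT-Co. The vitamin K-dependent proteases F2 (prothrombin), F7, F9 and F10 had differences of 0.13 ± 0.09, 0.36 ± 0.11, 0.14 ± 0.10 and 0.36 ± 0.14. F7, which starts clotting together with tissue factor, averaged 2790 ± 73.8 in T-Co and 2179 ± 39.2 in NT-Co (limma adjusted p = 0.0730). F10 gave 0.32 to 0.36 in all 3 of its probe sets. F5, the cofactor of factor Xa, had 0.15 ± 0.11, and its other probe set gave -0.004. F13b, the carrier subunit of the enzyme that crosslinks fibrin, had 0.09 ± 0.12. F3, tissue factor, lay near the intensity filter, between 6.75 and 37.8 in T-Co and between 43.1 and 73.6 in NT-Co, and the 95% interval of its difference ran from -3.04 to 0.08.

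The contact pathway, in which F12, prekallikrein and kininogen set off F11 on charged surfaces, held differences in both directions. F11 had intensities of 1389, 1443 and 1440 in T-Co and 2215, 2103 and 2086 in NT-Co. The groups did not overlap, and the difference of -0.58 ± 0.16 lay just outside the threshold (limma adjusted p = 0.0512). It passed under 5 of 12 other settings, and under none that left out 1 array (0.0869 to 0.155). Klkb1 (prekallikrein), the neighbour of F11 on the chromosome, had a difference of -0.43 ± 0.16 (0.145). F12 had 0.20 ± 0.15, and Kng1 (kininogen) 0.37 ± 0.15 (0.181). Kng1 was singled out after its values were seen, since its T-Co mean rests on replicate 13: that array had 36440, against 23420 and 22560 in replicates 9 and 10 and a NT-Co mean of 20810 ± 969.

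Of the anticoagulants, Pros1 (protein S), the cofactor of activated protein C, had intensities of 1014, 990.8 and 1289 in T-Co and 718.4, 742.8 and 815.2 in NT-Co. Its T-Co arrays all lay above NT-Co, with a difference of 0.52 ± 0.16 that did not pass (limma adjusted p = 0.0657). Proc (protein C) had -0.13 ± 0.12 (0.570). Tfpi, the inhibitor of the tissue factor pathway, was dim at 94.0 ± 24.4 in T-Co and 96.3 ± 25.2 in NT-Co, and its 3 probe sets disagreed in sign, from -0.58 to 0.18. Beside Plg, the plasma glycoproteins Hrg, which binds heparin and plasminogen, and Vtn (vitronectin), which stabilises PAI-1, had 0.25 ± 0.11 (0.201) and 0.25 ± 0.09 (0.122). The other, dimmer probe set of Vtn was called higher, at 0.33 ± 0.09 (0.0497).

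Complement initiation showed no calls between T-Co and NT-Co. The 7 genes of the classical and lectin pathways had differences from -0.24 to 0.31, with a median of 0.16. The proteases C1s1 and C1ra had 0.08 ± 0.11 and 0.16 ± 0.13, and C2, the protease of the classical and lectin C3 convertase, had 0.31 ± 0.16 (limma adjusted p = 0.272). The mannose-binding lectins differed in sign, with Mbl1 at -0.24 ± 0.11 (0.234) and Mbl2 at 0.19 ± 0.12 (0.423). Their proteases Masp1 and Masp2 had -0.09 ± 0.14 and 0.17 ± 0.18, and 1 of the 5 Masp1 probe sets had the opposite sign. Cfb, the protease of the alternative pathway, had 0.23 ± 0.12 (0.276). Of the control proteins, C4bp had 0.15 ± 0.21 and Cfi 0.18 ± 0.11, and for both the highest array was T-Co replicate 13, at 16890 for C4bp and 22630 for Cfi.

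The terminal pathway was lower in T-Co for 5 of its 6 genes, with a median of -0.40, and C6 alone was called. C9, the subunit that polymerises to form the pore, had 13570, 17830 and 10150 in T-Co and 20540, 19600 and 26530 in NT-Co. All T-Co arrays lay below NT-Co, but they were widely spread, and the difference was -0.71 ± 0.21 (limma adjusted p = 0.0625). It ran from -0.91 without T-Co replicate 10 (0.0249) to -0.50 without T-Co replicate 13 (0.168). C8a and C8b, which lie next to each other, had -0.26 ± 0.11 (0.199) and -0.54 ± 0.19 (0.120), and C8g -0.22 ± 0.15 (0.405). Hc, the mouse gene of C5, was the exception at 0.06 ± 0.11 (0.804). The median was -0.40 with quantile normalization as well, and -0.34 without T-Co replicate 13, where 0 of the 6 differences, that of Hc included, lay above 0.

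**Figure D3:**
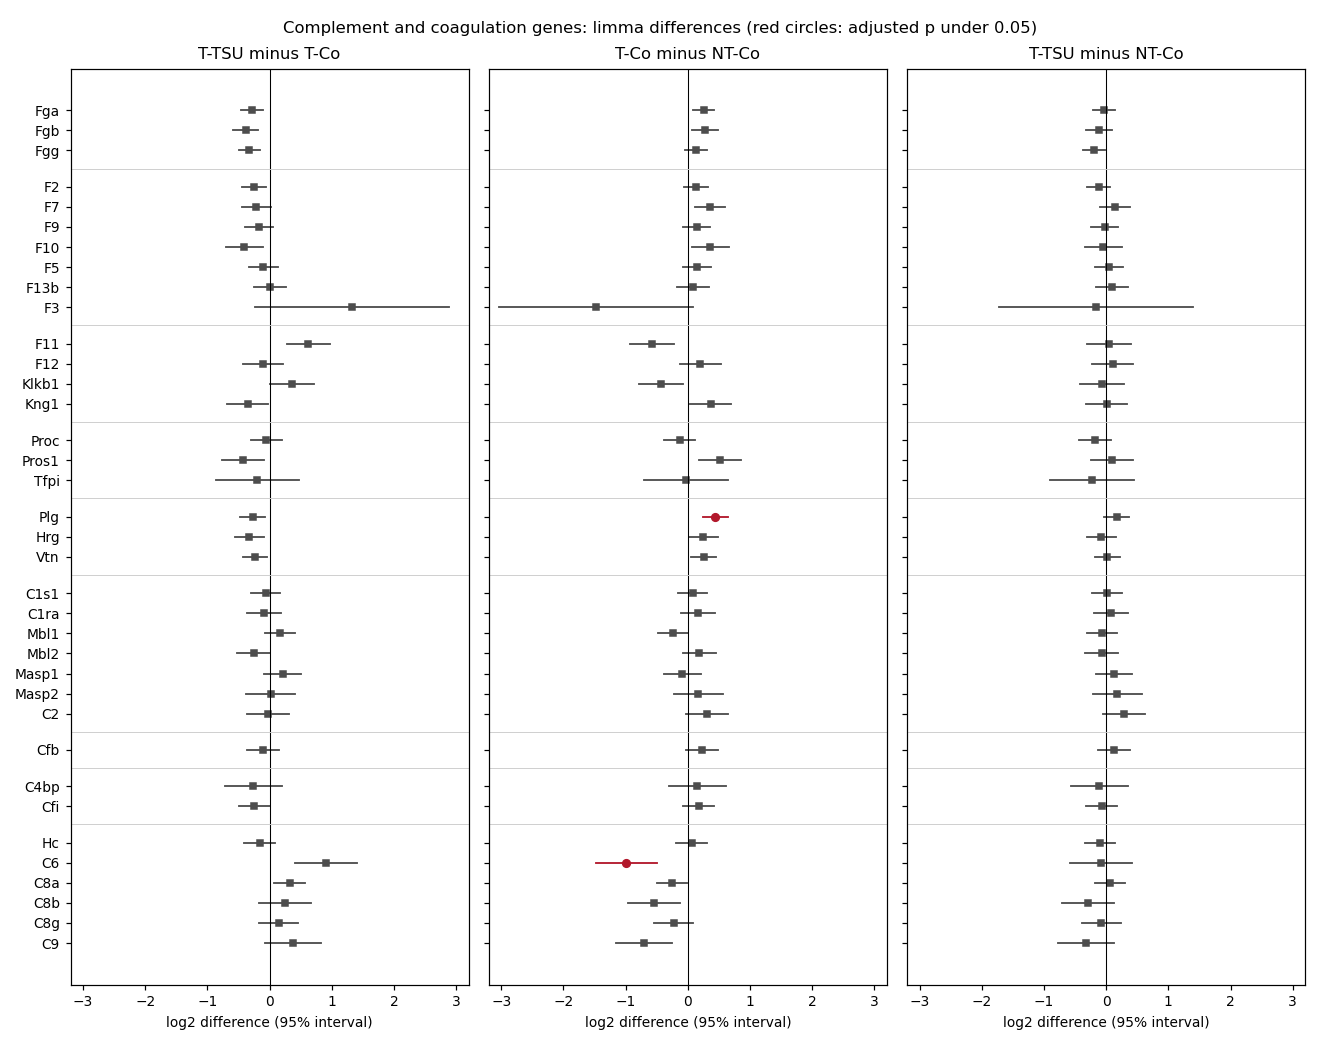
Log2 differences (horizontal axes) of the 36 genes, in blocks by role, for T-TSU minus T-Co, T-Co minus NT-Co and T-TSU minus NT-Co, with 95% intervals of the limma fit as lines. Red circles mark the calls, Plg and C6 in T-Co minus NT-Co; grey squares are differences that did not pass.

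Several members are neighbours in the genome. Each member was paired only with the next member along its chromosome. Of these pairs, 8 had at most 4 protein-coding genes between them, and in all 8 both genes had the same sign for T-Co against NT-Co. F7 and F10 had 0.36 each and Cfb and C2 0.23 and 0.31, while F11 and Klkb1 had -0.58 and -0.43 and C8b and C8a -0.54 and -0.26. The other pairs, Fgg with Fga, Fga with Fgb, Hrg with Kng1 and C1ra with C1s1, had differences above 0. Since 24 of the 36 differences lay above 0, members that are not neighbours often share a sign too. In T-TSU against NT-Co the signs differed for Hrg and Kng1 (-0.078 and 0.011) and for C8b and C8a (-0.294 and 0.063). They also differed for F7 and F10 (0.146 and -0.049) and for F11 and Klkb1 (0.044 and -0.062), and matched in the other pairs. None of these single differences passed, and the pairs share arrays, so the signs are a description without a test.

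T-TSU livers were set against T-Co livers for the effect of TSU68 in the presence of a tumour. By limma, 0 of the 36 genes passed, against 0.0433% of all genes called higher and 0.0108% lower, and 0.0505% of all probe sets. At an unadjusted p under 0.05, 4 of the 36 were higher and 10 lower, larger shares than the 5.68% and 5.81% of all genes. The median difference was -0.10, where all genes had 0.001. Differences lay above 0 for 12 of the 36 genes and below 0 for 24, against 50.2% and 49.8% of all genes. With no overlap of the arrays, 4 of the 36 were higher and 14 lower in T-TSU, larger shares than the 7.08% and 7.6% of all genes. These shares were not tested. This comparison uses the same T-Co arrays as the one above, with the opposite sign, so its differences are not independent of those.

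Fibrinogen intensities were lower in every T-TSU array than in every T-Co array. Fga had 32370, 32450 and 31940 in T-TSU, against the T-Co values of 40610, 38400 and 38990, a difference of -0.29 ± 0.08 (limma adjusted p = 0.224). Fgb had 31550, 30600 and 28040 in T-TSU, a difference of -0.39 ± 0.10 from T-Co (0.186). Fgg had 27220, 26840 and 26800, a difference of -0.33 ± 0.08 (0.186). The T-TSU arrays of Fga and Fgg agreed within an SD of 275 and 233. The median of the 107 bright genes was -0.15 in this comparison and 0.012 after quantile normalization, which left Fga at -0.077, Fgb at -0.23 and Fgg at -0.12. The T-TSU and T-Co sums of hepatocyte markers did not overlap either, as given above.

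C6 had 3107, 1558 and 3309 in T-TSU and 1350, 1288 and 1379 in T-Co. T-TSU replicates 2 and 14 lay above all NT-Co arrays, while replicate 12 lay near T-Co. The difference was 0.91 ± 0.23 (limma adjusted p = 0.193), and 1.26 ± 0.13 (0.0105) without T-TSU replicate 12. Of the 6 fits with 1 array left out only that 1 passed, and they ran from 0.71 to 1.26 (0.0105 to 0.527). F11 had 2703, 1666 and 2364 in T-TSU and 1389, 1443 and 1440 in T-Co, again with replicate 12 the lowest of T-TSU. Its difference was 0.63 ± 0.16 (0.197), and 0.83 ± 0.13 (0.0339) without that replicate. For F11 too only that 1 of 6 fits passed, and they ran from 0.48 to 0.83 (0.0339 to 0.543). C9 had 20750, 13440 and 19360 in T-TSU and 13570, 17830 and 10150 in T-Co, so the groups overlapped, and the difference was 0.38 ± 0.21 (0.563). C8b, singled out after its values were seen, showed the same array as lowest, with 6092, 3432 and 5631 in T-TSU and 3604, 4052 and 4853 in T-Co. NT-Co replicate 8 was the lowest array of its group for 18 of the 36 genes. T-TSU replicate 12 was likewise the lowest of its group for 18, and the highest for 13. Its beta-actin 3' to 5' ratio was 2.11, against 2.16 and 1.79 in replicates 2 and 14. Its Gapdh ratio of 0.851 and its median intensity of 120.1 were the highest of the 9 arrays, against Gapdh ratios of 0.744 and 0.707 in replicates 2 and 14, and the cause of its values was not tested.

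Of the other genes, Plg differed by -0.27 ± 0.09, Hrg by -0.32 ± 0.11 and Vtn by -0.23 ± 0.09 between T-TSU and T-Co, and none passed (limma adjusted p = 0.329, 0.319 and 0.393). Plg had 27760, 28110 and 28000 in T-TSU, below every T-Co array. Pros1 had 892.4, 704.8 and 841.8 in T-TSU, also below every T-Co array, a difference of -0.43 ± 0.16 (0.357). F10 differed by -0.41 ± 0.14 (0.319), Kng1 by -0.35 ± 0.15 (0.436) and F2 by -0.25 ± 0.09 (0.330). For F10 and Kng1 the highest T-Co array was replicate 13, at 13360 and 36440. Their dimmer probe sets had smaller differences with overlapping arrays, -0.16 and -0.25 for F10 and -0.21 for Kng1. The classical and lectin genes lay between -0.26 and 0.21, with a median of -0.026. In the terminal pathway 5 of 6 differences were above 0, with C8a at 0.32 ± 0.11 (0.337) and Hc at -0.16 ± 0.11 (0.666).

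**Figure D4:**
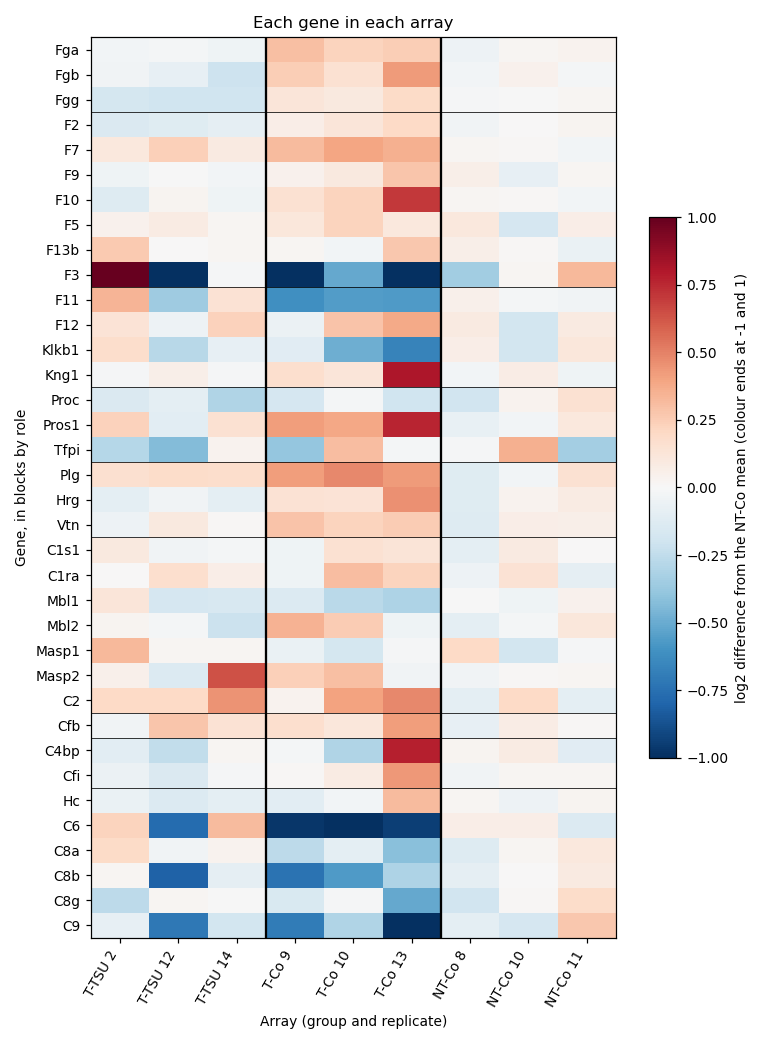
Log2 difference of each gene (rows, in blocks by role) from its NT-Co mean in each array (columns, T-TSU, T-Co and NT-Co), red above and blue below, with colours ending at -1 and 1. T-Co arrays are red for fibrinogen and Plg and blue for F11, C6, C8b and C9; T-TSU replicate 12 is also blue for F11, C6, C8b and C9, and T-Co replicate 13 is deepest red for F10, Kng1, Pros1 and C4bp.

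The comparison of T-TSU with NT-Co sets treated tumour-bearing mice against mice without tumour. By limma, 0 of the 36 genes passed, against 2.12% of all genes called higher and 1.58% lower, and 3.93% of all probe sets. At an unadjusted p under 0.05, 0 of the 36 were higher and 1 lower, against 8% and 8.53% of all genes. The differences ran from -0.33 for C9 to 0.28 for C2, and the median was -0.04, where all genes had -0.015, and it was 0.002 after quantile normalization. Differences lay above 0 for 16 of the 36 genes and below 0 for 20, against 48.2% and 51.8% of all genes. The arrays did not overlap for 2 higher and 4 lower genes of the 36, against 11.6% and 12.6% of all genes.

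The 5 genes with the smallest p in this comparison were Fgg, Plg, C2, C9 and Proc. Fgg had 27220, 26840 and 26800 in T-TSU and 30500, 30570 and 31140 in NT-Co, with no overlap and a difference of -0.19 ± 0.08 (limma adjusted p = 0.25). Plg differed by 0.17 ± 0.09 (0.389), its T-TSU arrays lying just above the highest NT-Co array of 27610. C2 had 1517, 1515 and 1810 in T-TSU and 1234, 1518 and 1232 in NT-Co, and the difference was 0.28 ± 0.16 (0.406). Proc had 8399, 8683 and 7519 in T-TSU and 8147, 9505 and 10320 in NT-Co, and the difference was -0.18 ± 0.12 (0.495). C9 differed by -0.33 ± 0.21 (0.485), with the array values given above. C2, C9 and Proc overlapped between the groups.

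For 5 of the genes given per array, the 95% intervals of T-TSU minus NT-Co were -0.57 to 0.42 for C6, -0.31 to 0.40 for F11, -0.78 to 0.12 for C9, -0.20 to 0.14 for Fga and -0.32 to 0.10 for Fgb. That of Fgg, from -0.364 to -0.015, was negative throughout, though its difference did not pass. A difference that misses the threshold does not show that treated mice and mice without tumour were alike. The small differences of Fga and C6 changed sign under some settings.

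Other genes of both cascades were read from a list of 26 complement and 25 coagulation and fibrinolysis genes. Of 12 complement genes tested, 0 were called in any comparison by limma; at an unadjusted p under 0.05, 3 were higher in T-Co than in NT-Co, against 10.7% of all genes, and 5 lower in T-TSU than in T-Co, against 5.81%. These were led by C1qa, a chain of the recognition protein C1q, at 1.09 ± 0.35 for T-Co against NT-Co (adjusted p = 0.0858) and -1.45 ± 0.35 for T-TSU against T-Co (0.177). C1qb had 0.91 ± 0.36 (0.159) for T-Co against NT-Co in its brightest probe set, while its dimmer probe sets had -0.010 ± 0.26 (0.991) and 0.23 ± 0.21 (0.566). Cfp (properdin, which stabilises the alternative convertase) and C1qc had -1.41 ± 0.39 (0.220) and -1.13 ± 0.37 (0.314) for T-TSU against T-Co. C1q and properdin are made by macrophages rather than hepatocytes. The 9 Kupffer cell and macrophage markers measured summed to 4539 to 9284 in T-TSU, 9064 to 13210 in T-Co and 7343 to 9843 in NT-Co, and the part of these cells in the C1q values was not tested.

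Of 17 coagulation and fibrinolysis genes tested, 1 rose and 1 fell in T-Co against NT-Co, where 3.58% of all genes were called higher and 2.79% lower. Habp2, a serine protease that can activate F7, averaged 1300 ± 182 in T-Co and 787 ± 75.4 in NT-Co, a rise of 0.71 ± 0.16 (limma adjusted p = 0.0180), while its dimmer probe set had -0.53 ± 0.20 (0.146), so the gene's direction is uncertain. Tfpi2, an inhibitor of plasmin and of the tissue factor pathway, averaged 2016 ± 168 in T-TSU, 2072 ± 324 in T-Co and 3534 ± 72.3 in NT-Co. It fell in T-Co against NT-Co by 0.78 ± 0.14 (0.00598) and in T-TSU against NT-Co by 0.81 ± 0.14 (0.00620), and the difference between T-TSU and T-Co was -0.030 ± 0.14 (0.965). Lman1, a cargo receptor for F5 and F8, differed between T-Co and NT-Co by -0.21 ± 0.10 in its brightest probe set (0.258). The next brightest was called in that comparison at 0.67 ± 0.11 (0.00486). In T-TSU against NT-Co these probe sets had -0.07 ± 0.10 (0.811) and 0.73 ± 0.11 (0.00376).

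Of 15 measured liver transcription factors and components of interleukin-6 and interleukin-1 signalling, 7 rose and 2 fell in T-Co against NT-Co, where 3.58% of all genes were called higher and 2.79% lower. The C/EBP factors Cebpb and Cebpd rose by 2.21 ± 0.29 and 1.85 ± 0.30, Stat3 by 1.28 ± 0.15 and the interleukin-6 receptor chain Il6ra by 1.73 ± 0.30 (limma adjusted p = 0.00122, 0.00397, 0.00086 and 0.00572). The forkhead factors Foxa1 and Foxa2 fell, by 1.42 ± 0.31 and 1.04 ± 0.19 (0.0168 and 0.00712), while Foxa3 rose by 0.74 ± 0.18 (0.0313). The signal-transducing receptor chain Il6st rose by 0.81 ± 0.16 (0.01) and the interleukin-1 receptor Il1r1 by 1.35 ± 0.32 (0.0278). Probe sets of a gene did not always match: the next brightest of Stat3 had 0.27 ± 0.15 (0.319) and the dim other one of Cebpd -0.26 ± 0.75 (0.883). Hnf4a had -0.23 ± 0.16 (0.453) in its brightest probe set, while the dimmest of its 4 was called at 0.96 ± 0.24 (0.0324). In T-TSU against T-Co, 0 of the 15 passed by limma, against 0.0433% of all genes called higher and 0.0108% lower. At an unadjusted p under 0.05, 4 of the 15 were higher and 2 lower, against 5.68% and 5.81% of all genes. The smallest p-values were those of Foxa2 at 0.90 ± 0.19, Foxa1 at 1.184 ± 0.31 and Onecut1 at 1.61 ± 0.49 (0.126, 0.197 and 0.28). In their brightest probe sets the T-TSU and T-Co arrays did not overlap, as for 7.08% of all genes in this direction. The T-TSU minus NT-Co differences of these 3 genes were -0.13 ± 0.19, -0.24 ± 0.31 and -0.14 ± 0.49 (0.808, 0.785 and 0.932). The dimmer Onecut1 probe set had 0.81 ± 0.46 (0.582) for T-TSU against T-Co, with overlapping arrays, and -0.40 ± 0.46 (0.746) for T-TSU against NT-Co. In T-TSU against NT-Co, where 2.12% of all genes were called higher and 1.58% lower, Foxa3, Cebpb, Stat3 and Il6ra rose, by 0.90 ± 0.18, 1.71 ± 0.29, 0.96 ± 0.15 and 1.87 ± 0.30 (0.0170, 0.00601, 0.00418 and 0.00482). The next brightest Stat3 probe set had 0.068 ± 0.15 (0.886) there, and the dimmer one of Il6ra 1.13 ± 0.41 (0.173). The fibrinogen windows hold matches to STAT, C/EBP or interleukin-6 motifs, as shown above, and no link between these regulators and the fibrinogen values was tested.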

How the data were processed

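Liver RNA of 9 samples was measured on 3' expression arrays from 5 µg of total RNA, per the labels' protocols. The deposited values are linear intensities, 1 per probe set and sample, made by the authors; the software behind them was not given in the sources used here. The arrays were already scaled: with the outer 2% of values on either side dropped, their means were all 500.3. Groups came from the sample titles. Of 22690 probe sets, 64 were controls and 6788 others, with a mean intensity under 42.0 (the 30th percentile), were left out, which left 15838. Genes were named from the platform annotation, from probe sets with 1 gene (20380; 691 had several and 1555 none), of which 20351 matched RefSeq. Values were taken as log2(intensity + 7.93), the 10th percentile of all values, so fold changes of dim genes are understated. A group-means model over the 9 arrays (6 residual degrees of freedom) was fitted with limma 3.58.1 in R 4.3.3, with eBayes and its trend option, and all tests were two-sided. The number of arrays limits the precision. The pipeline was tested on simulated data.

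Values are given per array for genes called in any comparison, for the fibrinogen chains and for the 5 smallest p-values in each comparison. Genes of the other pathway and regulator lists are named where they were called, or else for up to 3 of the smallest p-values. The members, lists and motifs were chosen with earlier results of these data known. Alternatives were the pseudocount, the filter, the normalization, the variance model, the arrays in the fit, array weights, the mean of a gene's probe sets and each array left out in turn. Marker lists other than those given with the results (endothelial, stellate, neutrophil, adipocyte and platelet) are given in the closing section.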

Additional observations from a re-analysis of the deposited data

How the results depend on the processing

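The count of 2 called genes in T-Co against NT-Co was 4 with array weights (F11 and C9 added), 4 with the dimmer 50% of probe sets left out (Fga and F11 added), 1 with arrays centred on their median or with no filter (C6 alone) and 0 without the intensity trend. It was 3 with a pseudocount of 32, with a robust trend and with only both groups fitted (F11 added), and 3 with quantile normalization (C9 added). With 1 array left out it was 0 to 2, with 0 without NT-Co replicate 8 or 10 and 1 without T-Co replicate 9 and, in another fit, without NT-Co replicate 11. In T-TSU against T-Co the count stayed at 0 except without T-TSU replicate 12, where it was 2, a range of 0 to 2, and in T-TSU against NT-Co it was 0 under all 18 alternatives. A filter on the mean log2 value, chosen after seeing the data, gave the same 2 genes. Signs turned for C6 in T-TSU against NT-Co, to 0.025 with array weights and 0.269 without T-TSU replicate 12 (with 1 array left out it ran from -0.272 to 0.269), and for Fga in the same comparison, to 0.045 with quantile normalization, none of them called. Over all probe sets, calls in T-Co against NT-Co were 1043, 470 without the intensity trend, 661 with the mean of a gene's probe sets, where fewer features were tested, and 468 and 451 without NT-Co replicates 8 and 11. In T-TSU against T-Co the count over all probe sets was 8, and 26 with a pseudocount of 32, 15 with a robust trend, 59 without T-TSU replicate 12, 34 without T-Co replicate 10, and 0 with median centring, no filter, no trend, only both groups compared, the mean of a gene's probe sets, or without T-TSU replicate 2 or 14, and 1 with quantile normalization and 5 with array weights. In T-TSU against NT-Co it was 622, with 262 without the trend, 1037 with array weights, 398 with the mean of probe sets and 293 to 498 with 1 array left out. No paired analysis was possible because the labels give no pairing of livers between groups. The cause of these changes was not tested.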

Other observations

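Marker lists of other cell types a liver sample can hold were measured beside the cascade genes. Endothelial markers (10 measured, all above the intensity filter) summed to 2073 to 2962 in T-TSU, 2886 to 4652 in T-Co and 2484 to 3208 in NT-Co. Of these 10, 1 (Pecam1) was called higher in T-Co than in NT-Co, where 3.58% of all genes were called higher. Stellate cell markers (6 of 8 measured above the filter, Col1a1 and Hand2 below it) summed to 5656 to 6816 in T-TSU, 5160 to 5922 in T-Co and 6555 to 6999 in NT-Co. Of these 6, 1 (Col3a1) fell in T-Co against NT-Co, by 1.03 ± 0.20 (limma adjusted p = 0.00992), where 2.79% of all genes were called lower. Neutrophil markers (5 of 8 above the filter, Camp, Cxcr2 and Ltf below it) summed to 447.9 to 862.2 in T-TSU, 817.7 to 2205 in T-Co and 554.7 to 906.1 in NT-Co. Adipocyte markers (2 of 7 above the filter, with Adipoq, Lep, Retn, Cidea and Cidec below it) summed to 331.7 to 641.1, 388.7 to 1159 and 362 to 529.9 in T-TSU, T-Co and NT-Co. Platelet and megakaryocyte markers (4 of 7 above the filter, Ppbp, Gp9 and Itgb3 below it) summed to 612.2 to 841, 651.8 to 766.5 and 519.6 to 792.7 in the same groups. Of the Kupffer cell and macrophage markers, Cd163 was the 1 of 9 called in T-Co against NT-Co, at 1.47 ± 0.36 (limma adjusted p = 0.0312), where 3.58% of all genes were called higher.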
